A study of Arabidopsis thaliana with 16 samples.

Results

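The comparison is between plates of wild-type (WT) Arabidopsis callus housed in the BRIC canister lettered A and plates of the same cells housed in the canister lettered B. Its members are the 10 WT arrays of the 16 in the series, chosen by the canister letter in their titles, 6 from BRIC A and 4 from BRIC B. A BRIC is a sealed, unlit, unventilated container for culture dishes. Flight and ground each had their own canister A and canister B, so the units that share a letter are different physical containers. Plate A1 was arrayed in 2 runs in each environment, and its 2 arrays were averaged, which left 4 plates a side, namely A1, A2, B1 and B2 of flight and of ground. All WT plates carried 1 callus line made from Columbia-0 hypocotyls, labelled 14 days old, and were fixed in RNAlater on day 10, on orbit or, with a delay of 48 h, on the ground. Each canister also carried plates of knock-out lines, and all 6 HSFA2 KO arrays of the series came from BRIC B, whereas knock-out plates of BRIC A are not analysed here. Since 1 line filled every WT plate, p-values below measure only the spread between these plates. Each environment had 1 canister per letter, so plates of a canister are parts of it and not replicates of the letter.

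Heat shock proteins are chaperones that bind unfolding proteins, and their genes are switched on by heat shock factors, of which HSFA2 is the one that extends and amplifies the response in Arabidopsis. The same genes respond to other stresses that disturb protein folding, including oxidative stress and low oxygen. Callus is a mass of undifferentiated dividing cells, so genes of leaves, wood and root hairs give little signal in it.

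*HsfA2* itself gave a MAS5 signal, the scaled brightness of its probe set, of 5362 and 5748 on the flight plates of BRIC A and of 9045 and 9180 on those of BRIC B. On the ground the signals were 3187 and 4126 in BRIC A and 6291 and 3750 in BRIC B, against 7.38 to 170 on the HSFA2 KO arrays. Every WT plate was thus far above every KO array, and the WT canisters overlapped on the ground only. Lists of genes for states other than callus were dim in both canisters, with a median signal of 31.8 in BRIC A and 34.2 in BRIC B for photosynthesis and of 19.6 and 29.2 for xylem and secondary wall, beside 58.6 over all probe sets. The root, root hair and meristem list stood at 44.5 and 44.2. The cell cycle list, for dividing cells, was also dim, at 41.2 and 41.7, with 6 of 16 over the median signal. Dim lists thus do not set other states apart from dividing cells here. The median signal of a plate was 83.9 ± 13.6 (SD, n = 4) in BRIC A and 99.5 ± 20.8 (n = 4) in BRIC B (exact permutation test within environments, two-sided, p = 0.278, where the design allows no less than 0.0556). In bulk RNA, fewer cells of a type and less RNA per cell cannot be told apart.

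Over 22687 probe sets, 296 passed the thresholds in BRIC A : BRIC B, a background of 1.3%, with 90 higher in BRIC A (0.397%) and 206 lower (0.908%). To pass, a probe set needed more than a 2-fold difference in either direction and, before adjustment, a p below 0.01. In limma no probe set had an adjusted p under 0.05 (smallest adjusted p = 0.184). In simulated plates, 248 to 253 probe sets without a simulated difference passed the same thresholds, beside the 296 measured here. Single genes named below for passing are therefore descriptions. The unadjusted p was under 0.05 for 1352 measured probe sets, and 1134 would come from evenly spread p-values. It was under 0.01 for 305, where 227 would. The environment term of the same fit, from the same 8 plates, gave 261 (1.15%), of which 125 were higher (0.551%) and 136 lower (0.599%) in flight, with 1137 at an unadjusted p under 0.05. The excess of lower calls depended on scaling, since quantile normalization gave 127 higher and 178 lower, and centring each array on its median gave 126 and 153.

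The size of the canister term can be read beside the others as a share of each probe set's variation among the 8 plates. Canister held 16.2% on average, environment 14.4% and their interaction 13.6%, where an even share for each would be 14.3%. For probe sets over the median signal the shares were 18.1%, 14.9% and 13.7%, and plates of the same canister and environment held the remaining 53.3%, where an even share would be 57.1%. The canister term thus held slightly more of the variation than the environment term, a difference that was not tested. Array order went with the canister letter as well.

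The genes of the heat shock and cytosolic folding list were lower in BRIC A across the list. All 29 probe sets were below 0 (27 with quantile normalization, which left *HSP70* and *HSP17.4* just above 0), with a median log2 fold change of -0.51, and 10 of 29 had an unadjusted p under 0.05 (34.5%), beside 5.96% of all probe sets. Over all probe sets the median was -0.06, and 45.6% were above 0. Only 1 member passed both thresholds, against the background of 1.3%. In 20 of 29 both BRIC A plates lay below both BRIC B plates in each environment, which held for 4.38% of all probe sets. In 14 of 29 all 4 lay below all 4, beside 2.49%. These shares cover all probe sets, most of them dimmer than the list and with a wider spread. The median SE was 0.91 at a signal between 16 and 64 and 0.23 over 16384. No share was taken among probe sets of like signal. Members of 1 regulated response are also not 29 independent results. The mean log2 signal of the list was 13.89 and 13.65 on the flight plates A1 and A2 and 13.87 and 13.81 on the ground, whereas the B plates stood at 14.46 and 14.64 in flight and 14.22 and 14.12 on the ground. As deposited, no plate of BRIC A reached the level of any plate of BRIC B. The array medians differed too, at 76.1 on ground plate A2 against 106 and 96.1 on ground plates B1 and B2. This separation of plates therefore refers to the deposited scale only and need not hold with median centring.

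The member that passed was *ATHSP22.0*, a small heat shock protein of the endoplasmic reticulum. Its signal was 4327 and 4432 on the flight plates of BRIC A and 16379 and 15674 on those of BRIC B. On the ground it was 8950 and 7496 in BRIC A and 11807 and 13328 in BRIC B. The groups did not overlap, and the log2 fold change was -1.24 (SE 0.32, limma adjusted p = 0.667). The difference between canisters was -1.87 in flight and -0.61 on the ground (interaction -1.26, SE 0.44, adjusted p = 0.891). The call was lost when any of 6 plates was left out, and it held without plate A1 or without plate B1 of the ground. It was also lost with median centring.

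Other small heat shock proteins gave smaller differences with the same sign. *HSP18.2*, a cytosolic class I protein, gave 9627 and 8236 in flight and 10136 and 10386 on the ground in BRIC A. The BRIC B plates gave 17232 and 16402 in flight and 16193 and 12861 on the ground, and the fitted difference was -0.70 (SE 0.23, adjusted p = 0.768). *HSP21*, the small heat shock protein of plastids, was at 15813 and 15716 against 32921 and 43323 in flight, and at 28695 and 19845 against 28744 and 30137 on the ground (-0.78, SE 0.30, adjusted p = 0.808). The canister difference was -1.26 in flight and -0.30 on the ground, and its interaction with environment did not pass the thresholds. *HSP17.6II*, of cytosolic class II, gave -0.74 (SE 0.29, adjusted p = 0.816).

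Co-chaperones and regulators of the response lay on the same side. *Hop3*, which links HSP70 to HSP90, was at 16750 and 19951 against 33403 and 26929 in flight and at 12311 and 12121 against 22166 and 19304 on the ground (-0.74, SE 0.22, adjusted p = 0.743). *DREB2A*, a transcription factor of the drought and heat responses, gave -0.58 (SE 0.21, adjusted p = 0.808). The large chaperones differed less, with -0.47 (SE 0.21) for *HSP101*, -0.45 (SE 0.21) for *HSP90.1* and -0.43 (SE 0.23) for *HSP70*, and none of these reached an unadjusted p of 0.05. Quantile normalization brought these differences to -0.12, -0.13 and 0.00. *HSF4*, also known as HSFB1, was the member nearest to 0, at -0.06 (SE 0.22).

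The median of the list was -0.71 in flight, where all 29 members were below 0, and -0.36 on the ground, where 27 were. These plates are separate in the 2 environments. For the environment term of the same plates the median of the list was 0.14, with 23 of 29 members above 0 and 2 at an unadjusted p under 0.05. None of the 29 passed the thresholds there.

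**Figure D1:**
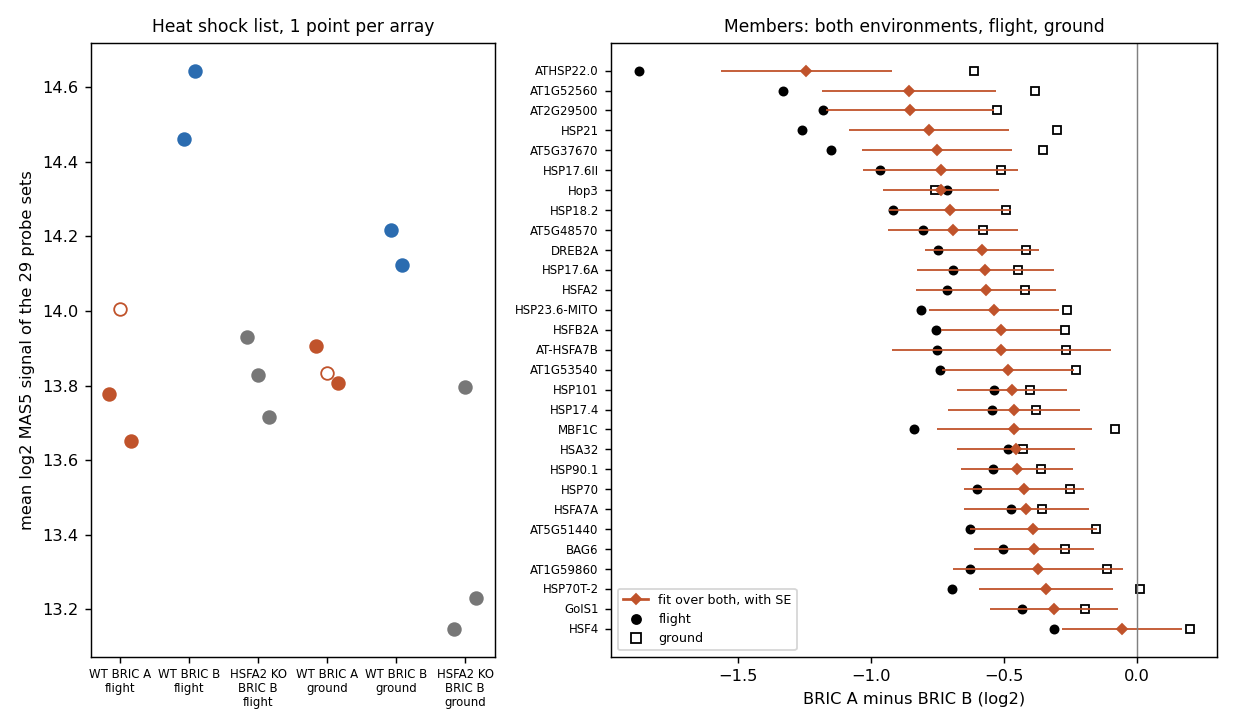
Left, mean log2 MAS5 signal of the 29 probe sets of the heat shock list, 1 point per array. Open circles are the second arrays of plate A1. On the deposited scale all 6 arrays of WT BRIC A lie below all 4 of WT BRIC B. Right, BRIC A minus BRIC B on the log2 scale for each member, fitted over both environments with its SE (diamonds), in flight (circles) and on the ground (squares); the fitted values run from -1.24 to -0.06.

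Other values moved with this result. Probe sets of very high signal were lower in BRIC A in general: of the 285 with a mean signal over 16384, 206 were below 0 (72.3%), with a median of -0.16. The 18 members of the heat shock list in that range had a median of -0.48. The 6 members between 4096 and 16384 had a median of -0.63, where all 757 probe sets of that range had -0.01, and the 5 members below 4096 had -0.51. Quantile normalization brought the median of the brightest probe sets to 0.01 and that of the list to -0.41, with 27 of 29 members below 0, 10 at an unadjusted p under 0.05 and 1 past the thresholds. Median centring moved all probe sets up, their median from -0.06 to 0.18, and the list to -0.27, with 1 of 29 members at an unadjusted p under 0.05 and 0 past the thresholds. This scaling shifts every probe set of an array by the same amount, so the list and the median of all probe sets moved together. That median is not level across signal. As deposited it was -0.32 at a signal up to 16 and 0.06 between 256 and 1024.

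The list of widely used reference genes, all over the median signal, had a median of -0.14, with 4 of 14 above 0 and none past the thresholds. Its member with the smallest p, the actin gene *ACT8*, was at 4251 and 4076 against 5750 and 5597 in flight and at 4535 and 4111 against 6156 and 5799 on the ground. The groups did not overlap, and the log2 fold change was -0.46 (SE 0.20, adjusted p = 0.85). The part of scaling and saturation in the difference of the heat shock list was not tested beyond these alternatives.

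**Figure D2:**
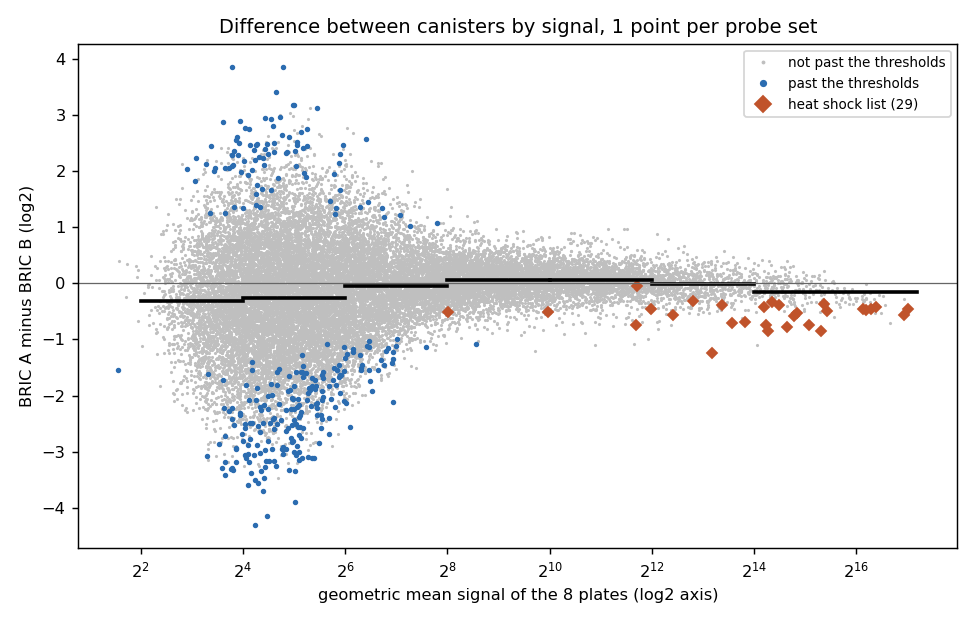
BRIC A minus BRIC B on the log2 scale against the geometric mean signal of the 8 plates, 1 point per probe set (22687), with black bars for the median of each signal range. The 296 probe sets past the thresholds lie mostly under a signal of 256, whereas the 29 members of the heat shock list are bright and all below 0 (27 with quantile normalization).

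The HSFA2 KO plates shared BRIC B with the higher WT plates. Their mean log2 signal of the list was 13.72 to 13.93 in flight and 13.15 to 13.80 on the ground, close to or under the WT plates of BRIC A. *ATHSP22.0* was at 1720 to 5236 on the 6 KO arrays. A WT level against which these plates are set therefore differed between the 2 canisters, by the median of -0.51 for this list. Within BRIC B the WT plates stood at 14.12 to 14.64, above every KO array, and between these plates genotype and culture line cannot be told apart.

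The 90 probe sets higher in BRIC A had a median log2 fold change of 2.26, and 12 of them were over the median signal of 58.6. In 88 of 90 both plates of BRIC A lay above both of BRIC B in each environment (3.13% of all probe sets did), in 78 all 4 lay above all 4 (1.81%), and 36 of 90 also passed with 32 added to each signal. The calls were made on these same plates, so their separation follows largely from the call and is a description only. The smallest p was that of AT1G03260, a gene with no function assigned in the array annotation. Its signal was 177 and 109 against 9.09 and 9.09 in flight and 55.3 and 114 against 7.44 and 4.53 on the ground (3.85, SE 0.35, limma adjusted p = 0.184). The 2 arrays behind the ground value of plate A1 were at 19.1 and 160. AT4G22753, annotated as similar to the yeast sterol methyl oxidase ERG25, was at 126 and 110 against 20.8 and 14.8 in flight and at 125 and 161 against 13.5 and 11.6 on the ground (3.12, SE 0.28, adjusted p = 0.184). In both genes the lowest BRIC A plate was above the highest BRIC B plate.

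AT2G47890, a B-box zinc finger protein of the family that holds the regulators of flowering and light responses, was the brightest of the 10 higher genes chosen by p. It was at 237 and 232 against 25.4 and 42.5 in flight and at 162 and 200.1 against 47.8 and 28.5 on the ground (2.56, SE 0.31, adjusted p = 0.292). The 6 HSFA2 KO arrays, although from BRIC B, stood at 226 to 472, within or above the range of the WT plates of BRIC A. AT1G63740, a gene similar to disease resistance receptors, differed less but evenly, with 91.5 to 119 in BRIC A and 29.7 to 37.2 in BRIC B (1.66, SE 0.22, adjusted p = 0.292).

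Developmental regulators were among the rest. *PHV* (PHAVOLUTA), a homeodomain-leucine zipper factor that sets the upper side of leaves, was at 54.0 to 129 in BRIC A and 7.29 to 18.4 in BRIC B (3.17, SE 0.43, adjusted p = 0.292). *SAUR27*, an early auxin-responsive gene, was at 30.2 to 95.0 and at no more than 15.0 (2.93, SE 0.40, adjusted p = 0.292). *HIPP27*, of the heavy metal-associated isoprenylated proteins, gave 2.89 (SE 0.34), AT4G16660, a relative of HSP70, gave 2.60 (SE 0.35), and AT5G54480, without known function, 3.85 (SE 0.53). The 2 arrays of plate A1 lay far apart in flight for *HIPP27* (3.76 and 93.8) and AT4G16660 (170 and 12.5). On the ground they did so for AT5G54480 (7.76 and 94.1) and *PHV* (20.6 and 141). For *SAUR27* they lay close, at 73.0 and 71.4 in flight and 89.0 and 76.5 on the ground. AT2G06470 (2.51, SE 0.28) belongs to a probe set that matches 14 loci of retroelements, so its source is uncertain. Its 2 arrays of plate A1 were at 138 and 19.6 in flight and at 65.2 and 307 on the ground. Retroelement, transposon or pseudogene annotations occurred in 6 of the 90 (6.67%) and in 8 of the 206 lower ones (3.88%), beside 1.88% of all probe sets and 3.13% of those under the median signal.

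The 206 probe sets lower in BRIC A had a median log2 fold change of -2.24, and 37 of them were over the median signal. The groups of plates separated within both environments in 205 of them, beside 4.38% of all probe sets, and 89 also passed with 32 added. Here too the separation follows largely from the call on the same plates. AT1G32040 was at 11.8 and 11.9 against 102 and 120 in flight and at 9.73 and 7.43 against 39.8 and 68.0 on the ground (-2.92, SE 0.29, adjusted p = 0.226). The probe set of *CYP79F1*, a cytochrome P450 that starts the synthesis of aliphatic glucosinolates from methionine, can bind more than 1 transcript. It was at no more than 9.13 in BRIC A and 69.3 to 133 in BRIC B (-4.15, SE 0.50, adjusted p = 0.292). *PYL1*, a receptor of abscisic acid, was at 3.61 to 12.1 and 54.9 to 91.0 (-3.35, SE 0.43, adjusted p = 0.292).

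Enzymes and membrane proteins made up most of the other 7 named. AT3G50280, an acyltransferase-like gene, gave -4.31 (SE 0.55) and AT1G31670, a putative copper amine oxidase, -2.95 (SE 0.39). *PTR5*, a dipeptide transporter, gave -2.76 (SE 0.41) and AT3G28040, a receptor-like kinase with leucine-rich repeats, -2.75 (SE 0.42). Both of these last calls were lost when plate A1 was represented by its second array alone. In flight the second array of A1 stood at 125 for *PTR5* and 192 for AT3G28040, where the first had 3.02 and 5.08. AT1G33930, an AIG1-like gene, gave -3.01 (SE 0.43), AT1G21140 gave -2.20 (SE 0.29) and AT4G08050, a possible pseudogene, -3.59 (SE 0.49). For AT1G21140 the 2 arrays of plate A1 in flight lay apart, at 80.1 and 10.3.

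**Figure D3:**
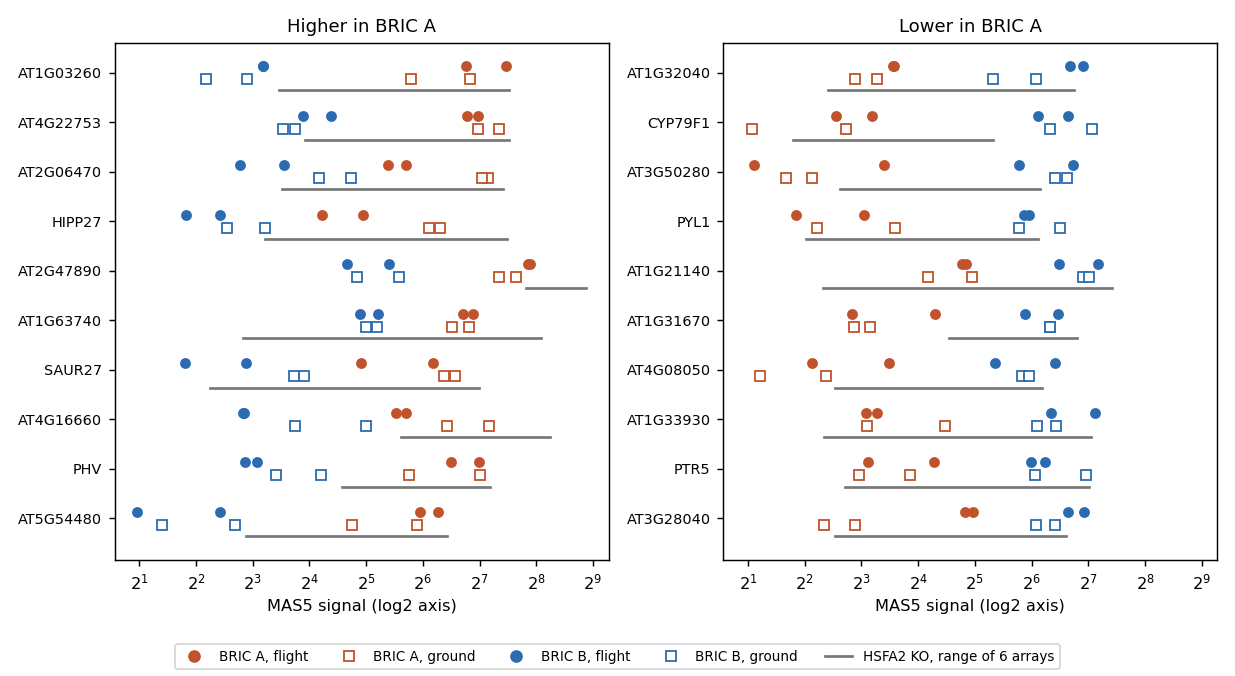
MAS5 signal (log2 axis) of the 10 genes higher and the 10 lower in BRIC A, 1 point per WT plate, with plate A1 as the mean of its 2 arrays and a grey line for the range of the 6 HSFA2 KO arrays. The 20 genes were chosen for plates that separate within both environments, so that the gap in each row is a description.

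Of the 296 probe sets past the thresholds 49 were over the median signal, 12 higher and 37 lower, and 47 of these were under 256. Only 2 of 6166 probe sets over a signal of 256 passed, and *ATHSP22.0* was the 1 of 2887 over 1024. The following genes were singled out after their values were seen. *DEK1*, the calpain that maintains the epidermis, was at 193 to 234 in BRIC A and 72.7 to 105 in BRIC B (1.22, SE 0.23, adjusted p = 0.497). *DET2*, a steroid reductase of brassinosteroid synthesis, was at 134 to 182 and 58.8 to 87.3 (1.17, SE 0.26, adjusted p = 0.567), and *HCF106*, a subunit of the thylakoid protein export machinery, at 278 to 431 and 129 to 186 (1.08, SE 0.26, adjusted p = 0.601). Each of these kept the plates of the 2 canisters apart.

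Among the lower ones, *GEK1* was at 97.2 to 165 in BRIC A and 271 to 294 in BRIC B (-1.13, SE 0.24, adjusted p = 0.547). *NGA2*, a B3 transcription factor of leaf and carpel margins, was at 45.1 to 90.5 and 154 to 207 (-1.46, SE 0.27, adjusted p = 0.473). AT4G34660, the other probe set over 256, was at 185 to 405 and 466 to 656 (-1.09, SE 0.29, adjusted p = 0.717). *ELIP1*, a light stress protein of the thylakoid, was at 23.1 to 72.2 and 100.4 to 162 (-1.50, SE 0.41, adjusted p = 0.737). The 2 arrays behind its ground value of plate A1 were at 4.47 and 120, and the second lies within the BRIC B range. For *NGA2* they were at 30.2 and 122 and for *GEK1* at 116 and 234.

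The repeat arrays of plate A1 show how far such levels hold when a plate is arrayed again. With the first array of A1 alone, 87 probe sets were higher and 277 lower in BRIC A, so that the second arrays had no part in these calls. The second array lay nearer the BRIC A mean than the BRIC B mean in 54.0% (flight) and 71.3% (ground) of the 87 higher ones. For the 277 lower ones it did so in 36.1% and 33.9%, beside 48.5% and 49.0% of all probe sets. In the lower set the median distance of the second array was 1.76 and 1.84 log2 units from the BRIC A mean and -0.55 and -0.59 from that of BRIC B. For most of the genes low on the first arrays of BRIC A, the second array of the same plate thus stood nearer BRIC B. These genes were chosen for low values on the first arrays, which arrays outside that choice need not follow. The second arrays also had fewer dim probe sets, with 19.01% (flight) and 18.55% (ground) under a signal of 16. On the first arrays of A1 these shares were 22.73% and 23.04%. What the position of the second arrays owes to either was not tested.

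The HSFA2 KO arrays, which took no part in the calls, gave a different position for each direction. Their mean was nearer BRIC A in 65.6% (flight) and 83.3% (ground) of the 90 higher probe sets, although the KO plates came from BRIC B. For the 206 lower ones it was nearer BRIC A in 48.1% and 50.0%, beside 55.5% and 52.2% of all probe sets. In KO plates genotype, culture line and canister cannot be told apart. The probe sets were also chosen for their values on the WT plates, which arrays outside that choice need not follow. What these positions owe to the canister was not tested.

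Arrays of BRIC A resembled each other more than arrays of BRIC B did. Over 11343 probe sets above the median signal, the 4 first arrays of BRIC A correlated at 0.93 to 0.943 and the 4 arrays of BRIC B at 0.87 to 0.913, with 0.887 to 0.931 between them. The second arrays of A1 correlated at 0.899 to 0.909 with the first arrays of BRIC A, their own plates included (0.902 and 0.907), and at 0.877 to 0.892 with BRIC B. In flight 12.8% of these probe sets differed more than 2-fold between A1 and A2 and 22.9% between B1 and B2, and on the ground 11.4% and 19.8%. Between the 2 arrays of A1 the shares were 18.0% and 17.9%. A second array of the same plate was thus further from the first than a different plate of the same canister was. Within each environment the running numbers of the array files were lower for the first arrays of BRIC A than for the arrays of BRIC B, so that array order and canister cannot be told apart, and the second arrays of A1 came later than both.

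**Figure D4:**
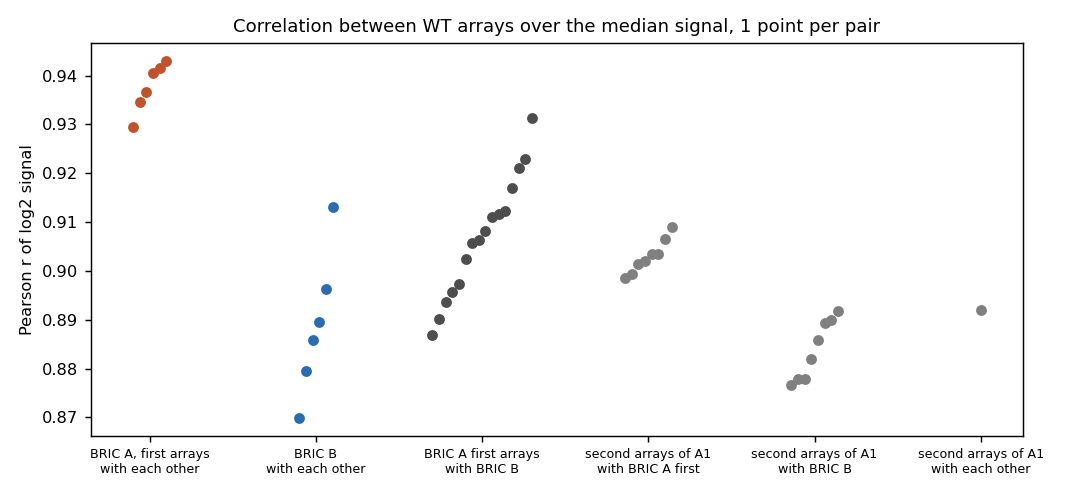
Pearson correlation of log2 signals between pairs of WT arrays over 11343 probe sets, 1 point per pair. The 6 pairs of first arrays of BRIC A stand highest, at 0.93 to 0.943, and pairs of BRIC B arrays at 0.87 to 0.913.

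The canister difference was compared between flight and ground, which share no plate. In flight 316 probe sets passed the thresholds (1.39%), 128 higher (0.564%) and 188 lower (0.829%) in BRIC A. On the ground 342 did (1.51%), 152 higher (0.67%) and 190 lower (0.837%). Of the 316 called in flight, 162 had the same sign on the ground (51.3%), with a median of 0.05 in the direction of the flight difference. Of the 342 called on the ground, 174 had the same sign in flight (50.9%), with a median of 0.02. Over all probe sets the differences correlated at r = 0.04 across genes and 53.1% had the same sign. Over the median signal these values were r = 0.10 and 55.4% (n = 11343), where genes are not independent replicates. Calls of 1 environment thus kept their sign in the other little more often than an even split. Each set of calls rests on 2 plates against 2, with no adjusted p under 0.05 in limma (smallest 0.471 in flight and 0.428 on the ground). Evenly spread p-values would put 227 probe sets under 0.01. Calls from spread between plates would also split evenly, so whether different genes set the canisters apart in flight and on the ground was not tested. Without plate B1 the count in flight was 601, and without plate A2 that on the ground was 202.

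**Figure D5:**
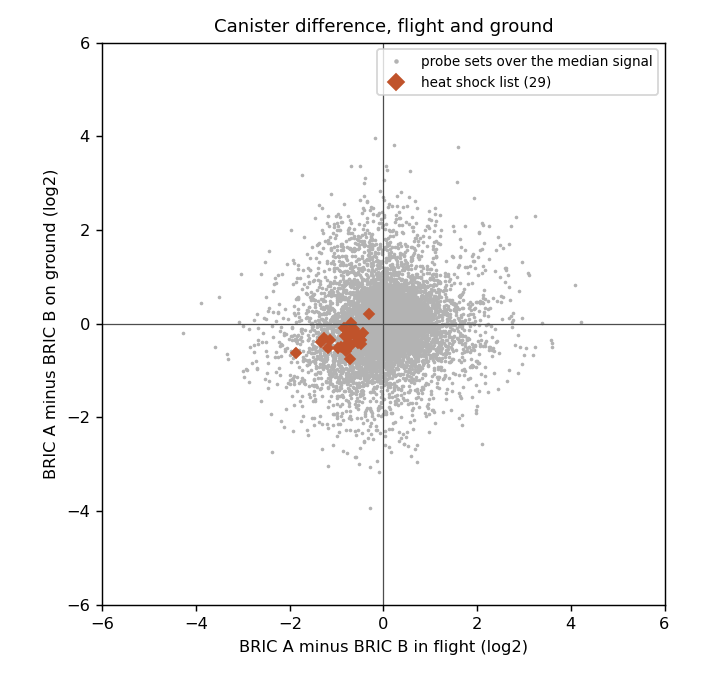
BRIC A minus BRIC B on the log2 scale in flight (x) and on the ground (y), 1 point per probe set over the median signal. The cloud has no clear axis (r = 0.10), and the 29 members of the heat shock list lie left of 0, with 27 also below 0 on the ground.

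The interaction of canister and environment gave 330 probe sets past the thresholds (1.45%), 171 above 0 (0.754%) and 159 below (0.701%), none with an adjusted p under 0.05 in limma (smallest 0.465) and 1221 with an unadjusted p under 0.05. The count was 506 without plate B1 of flight. AT1G42480 had the smallest p. It was at 15.3 and 12.8 in BRIC A and 88.7 and 83.3 in BRIC B in flight, and the order turned on the ground, with 108 and 99.1 in BRIC A and 9.76 and 14.4 in BRIC B (interaction -5.74, SE 0.50, adjusted p = 0.465). AT3G59630, annotated as similar to the yeast diphthamide synthesis gene DPH2, was at 80.8 and 43.7 against 4.66 and 4.70 in flight and at 65.5 and 65.1 against 161 and 158 on the ground (4.95, SE 0.57, adjusted p = 0.465). AT1G13200 was apart on the ground and not in flight, with 128 and 150.3 against 10.8 and 9.78, beside 83.0 and 98.3 against 79.3 and 90.3 in flight (-3.66, SE 0.46, adjusted p = 0.465). In 9 of the 10 genes named for the interaction the sign of the canister difference turned between flight and ground. These genes were chosen by the smallest p of the interaction, which favours such turns.

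Of 21 lists, 19 held no member past the thresholds, and at the background of 1.3% lists of these sizes would mostly hold none. In the photosynthesis list 1 of 21 passed, *LHCA3*, an antenna protein of photosystem I, which was at 12.4 to 54.4 in BRIC A and 79.9 to 90.8 in BRIC B (-1.68, SE 0.43, adjusted p = 0.667). That call was lost when any of 7 plates was left out, with both scalings and with 32 added (-0.91). The median of the photosynthesis list was 0.11, with 11 of 21 above 0.

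The sugar starvation and branched-chain breakdown list had a median of -0.27 with 2 of 23 members above 0, none at an unadjusted p under 0.05. Its mean log2 signal was 12.22 and 12.12 in flight and 11.96 and 12.49 on the ground in BRIC A. In BRIC B it was 12.91 and 12.14 in flight and 12.22 and 12.47 on the ground, so plates of the 2 canisters overlapped and plate B1 of flight stood above the rest. The 71 probe sets of the chloroplast genome had a median of 0.43, 54 of them above 0 and 3 at an unadjusted p under 0.05. Their mean log2 signal ran from 8.10 to 9.33 in BRIC A and from 7.56 to 9.56 in BRIC B, wider in both than the difference.

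The cold, drought and abscisic acid list had a median of -0.32, with -0.79 in flight and 0.20 on the ground. The 24 probe sets of the hypoxia response had a median of -0.10 (-0.04 in flight, -0.02 on the ground), with none at an unadjusted p under 0.05. The median was 0.07 for ER stress and the unfolded protein response, with 0.52 in flight and -0.33 on the ground, and 0.12 for the cell cycle. Within the ER list *ATERDJ3A*, a co-chaperone of the ER lumen that is also induced by heat, was at 351 to 407 in BRIC A and 475 to 695 in BRIC B (-0.67, SE 0.23, adjusted p = 0.807). In the circadian list *GRP7*, an RNA-binding protein under clock control, was at 3486 to 5116 and 1515 to 2784 (0.96, SE 0.29, adjusted p = 0.75). Both had plates that did not overlap, and neither passed the thresholds.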

How the data were processed

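The deposited intensity values were linear MAS5 signals of ATH1 probe sets. The authors computed them with Affymetrix software, scaled to a common trimmed mean on each array (480 to 486 here with 2% trimmed at each end) and deposited them as 1 table. Amplified cDNA (NuGEN Ovation Pico) was hybridized. The deposited values were converted to log2 with nothing added. Of 22810 probe sets, 22687 were tested and 123 left out, 64 of them controls. Genes were named from the array annotation and RefSeq symbols (22532 probe sets carry 1 locus name, 22036 of these matched). Columns of the authors' own fold changes and p-values, also deposited, were not used.

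Groups, plates and array runs came from the labels. Fits used limma 3.58.1 in R 4.3.3 (lmFit, eBayes) on 8 WT plates with canister and environment as additive terms (5 residual and 1.60 prior degrees of freedom), or with their 4 combinations for the interaction and the differences within an environment. The median residual SD was 0.38 log2 units over the median signal and 1.44 under it, and the number of plates limits the precision. The study's p was read as unadjusted, and p-values were also adjusted by Benjamini-Hochberg over all probe sets. Single plate values were compared by exact permutation within environments (36 arrangements). The fit was tested on simulated data for BRIC A : BRIC B over 22687 probe sets, with 200 changed probe sets over the median signal: 70 were recovered at a change of 1 log2 unit and 163 at 2, while 248 and 253 unchanged probe sets also passed. Figures used Python 3.11 and matplotlib 3.10.9.

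The members, the 21 gene lists and the rules were chosen with earlier results of these data known. Genes named are *HsfA2*, the 10 higher and 10 lower of smallest p that passed, with 1 locus name, also passing with 32 added and with separate plates in both environments, 5 per direction for the interaction, and list members past the thresholds or with the smallest p. Alternatives were quantile and median scaling, the offset, a signal filter, an intensity trend, either array of A1, 10 arrays with plate as a random block, KO arrays in the fit, the plate number as a block, each plate left out, and an adjusted p.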

Additional observations from a re-analysis of the deposited data

Results flagged for a closer look

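Among the 78 groups of 4 plates examined (33 named genes and 6 array measures in 2 canisters), 1 plate stood far from the other 3 by Dixon's ratio, where chance gives about 1 in 20. AT1G33930 was at 22.3 on the ground plate A1 of BRIC A and at 8.52 to 9.74 on the other BRIC A plates. The 2 arrays of that plate gave 6.39 and 77.5.

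The 10 genes named for the interaction of canister and environment were flagged, 5 per direction by the smallest p. Their number is set by that rule, and no probe set had an interaction with an adjusted p under 0.05 in limma. The interaction was 6.34 for AT1G52450, 5.91 for AT3G14250, 5.99 for AT2G20380, 4.95 for AT3G59630 and 5.95 for AT5G16960. It was -5.74 for AT1G42480, -5.16 for AT4G07340, -7.67 for AT3G20590, -5.01 for AT3G26480 and -3.66 for AT1G13200. The unadjusted p ran from 4.49e-05 to 0.000298, and every adjusted p was 0.465 in limma. The probe sets of AT1G52450 and AT3G20590 each match 2 loci.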

How the results depend on the processing

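Depth is set by signal: at a signal between 16 and 64 the median SE of the canister term was 0.91 log2 units, and over 16384 it was 0.23. With 32 added, 194 probe sets passed in BRIC A : BRIC B, 125 of them among the 296. Over the median signal only, the counts were 94 for BRIC A : BRIC B, 58 for flight : ground, 101 for the interaction, 161 in flight and 119 on the ground. With an intensity trend they were 149, 93, 147, 242 and 123. With the KO arrays in the fit the interaction gave 199. No probe set in any of the 5 had an adjusted p under 0.05, a count of 0. Leaving out a plate gave 231 to 429 for BRIC A : BRIC B, 243 to 325 for flight : ground, 223 to 506 for the interaction, 229 to 601 in flight and 202 to 465 on the ground.

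With the plate number as a replicate block the counts were 277, 210 for the interaction, 208 in flight and 244 on the ground, and flight : ground could not be fitted. Same-numbered plates of the canisters deviated with a correlation of -0.10 in flight and 0.00 on the ground over all probe sets, so the numbers were not taken to pair the plates. The 2 list members past the thresholds became 0 with the block, 1 with either scaling, the signal filter or the second array of A1, 4 with the first array, 5 with the random block and 1 to 7 without a plate. Quantile normalization moved the split in flight to 176 higher and 166 lower, and centring gave 202 and 155 on the ground.

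The heat shock list kept a median below 0 throughout, -0.27 with median centring and -0.59 to -0.43 without a plate. It had 26 of 29 members at an unadjusted p under 0.05 with the intensity trend, 2 with the block and 1 with median centring. The A minus B difference in the mitochondrial share of signal turned from 0.0548 to -0.0499 percentage points with the first array of A1 (exact p = 0.722 in both). With quantile normalization *HSP70* and *HSP17.4* turned to 0.00 and 0.02. Of the 33 genes chosen by rule none changed sign, and 78 of 598 values lost the call, 32 of these by the adjusted p. Most of these genes were chosen for a small p and for passing with 32 added, so a stable sign follows largely from the choice.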
